A study of Rattus norvegicus with 8 samples.

Results

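The Krüppel-like factors are zinc finger transcription factors that bind GC-rich and CACCC elements. In the striatal count data of METH and saline self-administered rats, 10 genes of this family were examined, chosen by name from 17337 gene symbols: Klf2, Klf4, Klf5, Klf6, Klf7, Klf9, Klf10, Klf13, Klf15 and Klf16. The 8 male Sprague-Dawley rats, labelled wild type, had all been food-trained to press a lever and fitted with a jugular catheter. Of these, 4 took METH, at 0.05 mg/kg for each infusion, in daily 2 h sessions over 16 days and 4 took saline on the same schedule. Age and the interval between the last session and tissue collection were not given in the sources used here. The study trained 24 METH and 8 saline rats and kept 4 of each that responded stably over the last days, and brains were taken under ketamine and xylazine. Each library was made from the striatum of 1 rat by poly(A) capture.

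Members of this family share a carboxy-terminal DNA-binding domain and differ in the rest of the protein, which recruits activating or repressing partners. Klf2, Klf4, Klf5, Klf6 and Klf7 are mainly known as activators. Klf9, Klf10, Klf13 and Klf16 can recruit the corepressor Sin3a, and Klf15 stands apart from both groups. Several members are known as rapidly induced genes in other tissues, Klf9 and Klf15 respond to glucocorticoids, and Klf4, Klf7 and Klf9 are known for effects on neurite growth.

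Total counts per rat ranged from 18135939 to 21211920. In this range the 10 genes were read between 119 times (Klf4 in saline rat 3) and 6357 times (Klf16 in saline rat 2). All 10 passed the expression filter and were tested together with all 12014 genes that did. Markers of striatal projection neurons, such as Ppp1r1b, were high in every rat, with a summed level over 11 genes of 15184 to 16181 CPM (reads scaled to an equal library size) in saline rats and 16086 to 20041 CPM in METH rats. Some libraries stood apart. METH rat 3 lay at 39.5 on the first principal component, against 0.257 to 5.29 for the other METH rats. On the same component saline rat 3 lay at -24.6, against -11.7 to -4.17 for the other saline rats. Saline rat 1 had 1198 counts of Slc17a7, the vesicular glutamate transporter of cortical neurons, against 64 to 256 counts in the other rats, and it had 69 counts of the cortical gene Tbr1 against at most 9 in any other rat. These cortical genes were singled out after their values were seen. The summed level of the 3 tested cortical genes was 3898 CPM in saline rat 1, within the saline range of 3357 to 3915 CPM. In METH rats that sum was 4117 to 6293 CPM. Fold changes of several Krüppel-like genes are also given without METH rat 3 or saline rat 1. Values of the other gene lists include every rat unless a left-out rat is named.

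Among the 10 Krüppel-like genes, 1 changed between the groups. Klf10, a transforming growth factor-beta-inducible member that mainly represses transcription, rose 1.85-fold in METH rats. The other 9 genes did not pass the test, although Klf5 was higher and Klf7 lower at an unadjusted p below 0.05. The count of 1 in 10 stands beside 62 genes called among all those tested, which is 0.516%, and in the higher direction 54 genes or 0.449%. In the lower direction 0 of the 10 were called, against 8 genes or 0.0666%. A gene was called at a false discovery rate (FDR) below 0.05 over all genes tested with a mean log2 CPM above 1. At an unadjusted p below 0.05, 3 of the 10 members differed, 2 higher and 1 lower, against 11.1% of all genes tested (6.26% higher and 4.88% lower). The log2 fold changes of the 10 genes lay between -0.44 and 0.88, with a median of 0.19, and the median over all genes tested was -0.01.

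**Figure D1:**
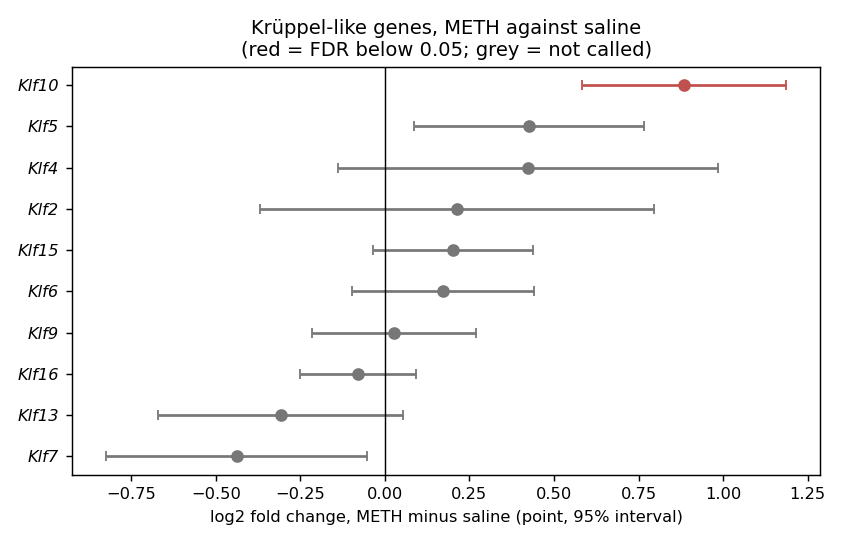
Log2 fold change of each Krüppel-like gene in METH rats against saline rats (horizontal axis), with its 95% interval from the edgeR quasi-likelihood fit on 4 rats per group. Klf10 (red, 0.88) is the called gene, and the intervals of Klf5 and Klf7 also leave out 0 before adjustment over all genes.

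Klf10 was at 13.0, 14.8, 12.2 and 17.8 CPM in saline rats 1 to 4 and at 25.3, 22.3, 29.4 and 29.8 CPM in METH rats 1 to 4. Every METH rat was above every saline rat, a separation seen in 3.75% of all genes tested in this direction. The underlying counts ran from 236 to 377 in the saline rats and from 469 to 566 in the METH rats. The group means were 14.4 ± 2.49 CPM (SD, n = 4) for saline and 26.7 ± 3.56 CPM (SD, n = 4) for METH. The log2 fold change was 0.88, with a standard error of 0.14, a 95% interval of 0.58 to 1.19 and an FDR of 0.00895 by the edgeR quasi-likelihood test. In the exact permutation test of log2 CPM the two-sided p was 0.0286, the smallest that 4 rats against 4 allow. Klf10 was called in each of the 8 fits that left out 1 rat, with log2 fold changes from 0.81 to 1.00. Without METH rat 3 its log2 fold change was 0.84, and without saline rat 1 it was also 0.84.

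**Figure D2:**
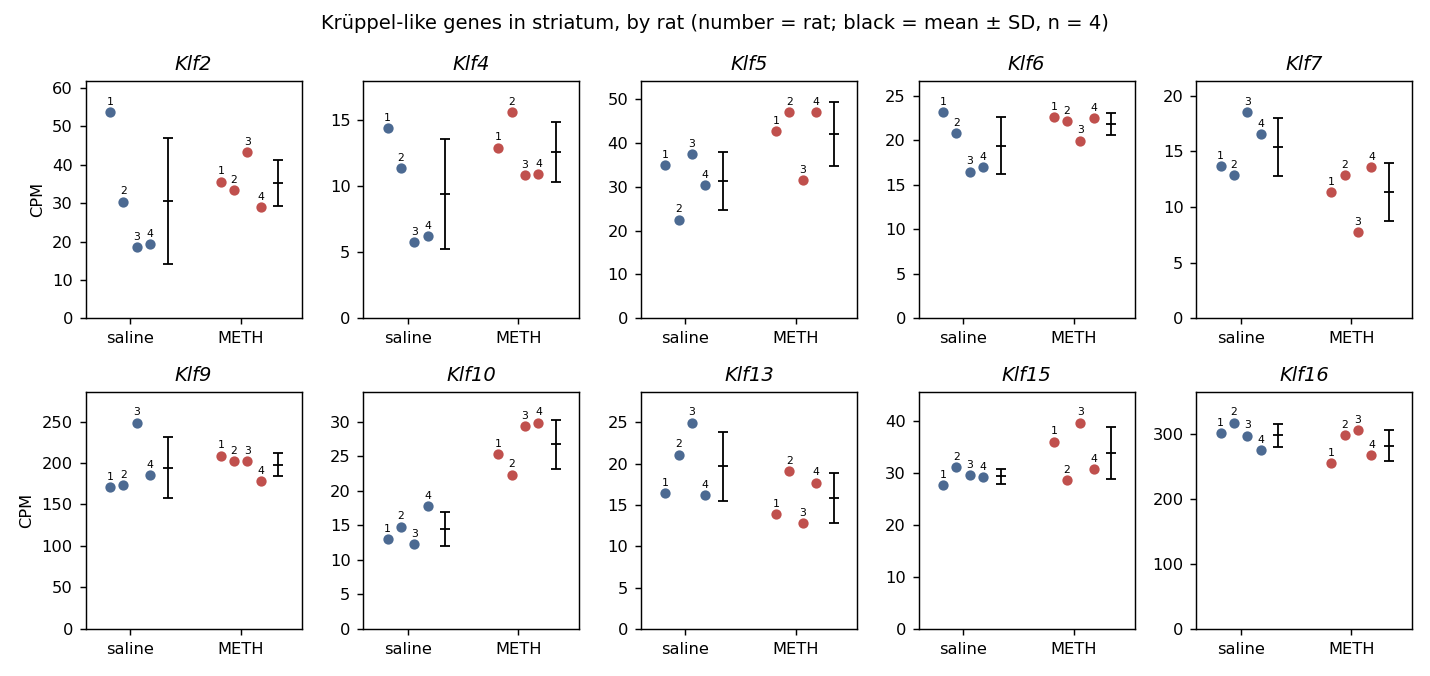
Level of each Krüppel-like gene in every rat, in CPM on a linear axis that starts at 0 and differs between panels. Blue points are saline rats, red points METH rats, numbers give the rat, and black bars are the mean ± SD of 4 rats. The METH rats lie above all saline rats in the Klf10 panel (22.3 to 29.8 against 12.2 to 17.8 CPM), whereas the groups overlap in the other panels.

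Klf11, the gene most closely related to Klf10, averaged 14.6 ± 2.10 CPM in the saline group and 12.6 ± 1.74 CPM in the METH group (both SD, n = 4), with a log2 fold change of -0.22 (standard error 0.14) and an FDR of 0.575 by the edgeR quasi-likelihood test. It had the lowest unadjusted p among the remaining family members that could be tested, which were Klf1, Klf3, Klf11 and Klf12, and 0 of these 4 were called by any of the tools run or had an unadjusted p below 0.05 in that test. Their median log2 fold change was 0.00. Klf14 had at most 2 counts in any rat. The Sp factors, which share the same kind of zinc finger domain, had 7 tested genes and 0 calls by any of these tools, with a median log2 fold change of -0.20. Sp1, a ubiquitous GC-box activator, had the lowest unadjusted p among them (0.0286, 1 lower and 0 higher at an unadjusted p below 0.05 in the edgeR quasi-likelihood test). Its means were 35.0 ± 3.29 CPM (SD, n = 4) in saline and 29.5 ± 2.30 CPM (SD, n = 4) in METH rats, and its FDR was 0.394 in the same test.

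Klf5, an activator known from epithelial and smooth muscle cells, was at 35.0, 22.5, 37.5 and 30.4 CPM in saline rats 1 to 4 and at 42.8, 47.1, 31.6 and 47.0 CPM in METH rats 1 to 4. METH rats 1, 2 and 4 were above every saline rat, while METH rat 3 fell within the saline range. The log2 fold change was 0.43 (standard error 0.16, 95% interval 0.09 to 0.77) with an FDR of 0.345 by the edgeR quasi-likelihood test. Without METH rat 3 it was 0.54 and the FDR 0.274 by that test. The unadjusted p of Klf5 in that test was 0.0554 without saline rat 2, 0.0503 without METH rat 2 and 0.0529 without METH rat 4. With any 1 of the other rats left out it was below 0.05.

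Klf7, an activator known for its part in axon growth and sensory neuron survival, was at 13.7, 12.9, 18.5 and 16.6 CPM in saline rats 1 to 4. In METH rats 1 to 4 it was at 11.3, 12.9, 7.74 and 13.6 CPM. Saline rats 1, 3 and 4 were above all METH rats, with saline rat 1 only just above METH rat 4. Saline rat 2 was below METH rat 4 and close to METH rat 2, and the lowest value was that of METH rat 3. The log2 fold change of -0.44 (standard error 0.18, 95% interval -0.82 to -0.05) had an FDR of 0.398 by the edgeR quasi-likelihood test. Without METH rat 3 it was -0.29, with an unadjusted p of 0.0816 in the same test. The unadjusted p of Klf7 in that test was also 0.0942 without saline rat 3, 0.0686 without saline rat 4 and 0.0531 without METH rat 1. With any 1 of the other rats left out it was below 0.05.

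Klf2 and Klf4 are best known from vascular endothelium, where blood flow induces them. They varied more between rats of the same group than most genes of similar level. The pooled within-group SD of log2 CPM was 0.53 for Klf2 and 0.49 for Klf4, at percentiles 99.7 and 97.0 of the genes within 0.5 log2 CPM of each. Klf2 was at 53.8, 30.4, 18.5 and 19.4 CPM in saline rats 1 to 4 and at 35.6, 33.4, 43.3 and 28.9 CPM in METH rats 1 to 4. Klf4 was at 14.4, 11.3, 5.75 and 6.19 CPM in the saline rats and at 12.9, 15.6, 10.8 and 10.9 CPM in the METH rats, in the same order. For both genes, saline rats 3 and 4 were below every METH rat and saline rat 1 was the highest saline rat. Klf6, an activator induced by injury, had the same order of saline rats over a narrower range, at 23.2, 20.8, 16.5 and 17.0 CPM in saline rats 1 to 4 and at 22.6, 22.1, 19.9 and 22.5 CPM in METH rats 1 to 4.

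None of these 3 genes was called. The log2 fold change was 0.21 for Klf2 (95% interval -0.37 to 0.80), 0.42 for Klf4 (-0.14 to 0.98) and 0.17 for Klf6 (-0.10 to 0.44). Their FDR values were 0.796, 0.548 and 0.619 by the edgeR quasi-likelihood test. Saline rat 1, which carried the cortical transcripts, also had the highest summed level of 16 early response genes among saline rats, 1249 CPM against 807 to 886 CPM. Without it the log2 fold change was 0.63 for Klf2, 0.70 for Klf4 and 0.27 for Klf6, and the FDR values were 0.231, 0.326 and 0.432. Without saline rat 3, one of the low saline rats, it was 0.03, 0.24 and 0.10 for the same genes, and without saline rat 4 it was 0.05, 0.26 and 0.11. With METH rat 3 left out, the log2 fold change was 0.10 for Klf2, 0.49 for Klf4 and 0.21 for Klf6. Without saline rat 1, 7 of the 10 members differed at an unadjusted p below 0.05 (Klf2, Klf4, Klf5, Klf6 and Klf10 higher, Klf7 and Klf13 lower). This stands against 11.5% of all genes tested in the fit without saline rat 1, and Klf10 was still the one called. Without METH rat 3, 2 of the 10 differed at that level (Klf5 and Klf10), against 7.52% of all genes. The remaining fits with 1 rat left out had 2 to 4 members at that level, against 8.94% to 13% of all genes. Saline rat 1 was the highest saline rat for Klf2, Klf4 and Klf6, so leaving it out necessarily raised their fold changes.

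**Figure D3:**
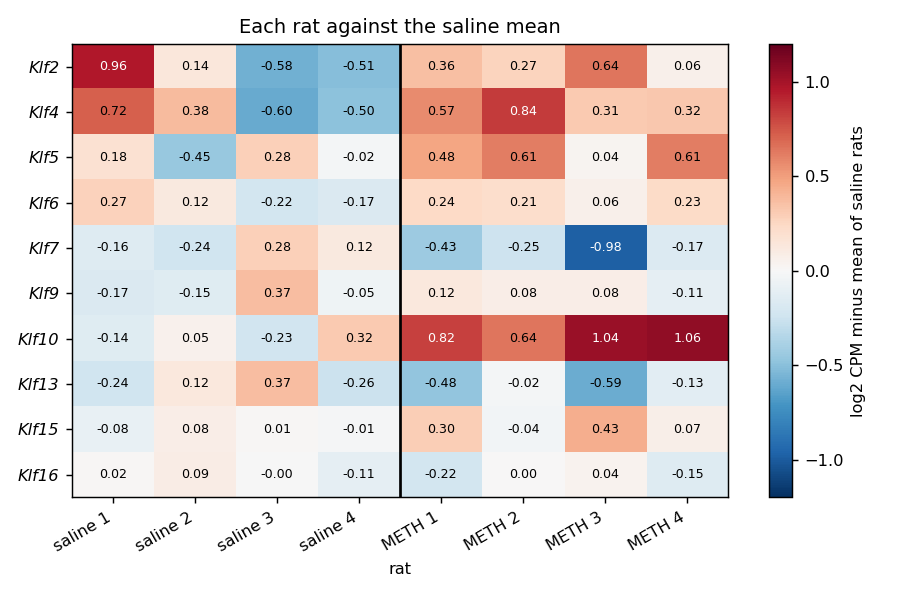
Log2 CPM of each Krüppel-like gene (rows) in each rat (columns) minus the mean of the 4 saline rats, on a scale from blue (lower) to red (higher). Saline rat 1 stands at 0.96 for Klf2 and 0.72 for Klf4 while saline rats 3 and 4 are below the saline mean for both, and Klf10 is 0.64 or more above the saline mean in all 4 METH rats.

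The part of the cortical or early response transcripts of this rat in its Klf2 and Klf4 levels was not tested. Of 11 tested endothelial and pericyte markers 0 were called by any of the 5 tools run (edgeR in 3 forms, DESeq2 and limma-voom), and in the edgeR quasi-likelihood test at an unadjusted p below 0.05 there were 5 lower and 0 higher, with a median log2 fold change of -0.21. None of them was at 0 in any rat, and their summed level was 567.9 to 801.8 CPM in saline rats and 561.9 to 600.2 CPM in METH rats. In saline rat 1 it was 615.2 CPM, within the saline range. Ocln, which encodes a tight junction protein, had the lowest unadjusted p of the list, at -0.41 on the log2 scale (FDR = 0.254, edgeR quasi-likelihood test). In bulk tissue, fewer cells of a type and less RNA per cell cannot be told apart.

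Klf9 and Klf13 are paralogous GC-box factors, of which Klf9 is induced by corticosteroids and thyroid hormone. Klf9 was at 170.5, 173.1, 248.6 and 185.0 CPM in saline rats 1 to 4 and at 208.9, 202.5, 202.3 and 178.0 CPM in METH rats 1 to 4, so that the METH rats lay inside the saline range. Its log2 fold change was 0.03 (95% interval -0.22 to 0.27), and the sign turned when libraries were scaled by total counts or when saline rat 1, saline rat 2 or METH rat 1 was left out. Klf13 was at 16.4, 21.1, 25.0 and 16.2 CPM in saline rats and at 13.9, 19.1, 12.8 and 17.7 CPM in METH rats. The groups overlapped, and the log2 fold change of -0.31 (95% interval -0.67 to 0.05) had an FDR of 0.504 by the edgeR quasi-likelihood test. It was -0.17 without saline rat 3, -0.22 without METH rat 3, -0.38 without saline rat 1 and -0.41 without METH rat 2. Klf16, also known as dopamine receptor regulating factor, was at 275.9 to 317.8 CPM in saline rats and at 255.9 to 306.7 CPM in METH rats, with a log2 fold change of -0.08 (95% interval -0.25 to 0.09).

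Klf15, a glucocorticoid-responsive regulator of glucose and amino acid metabolism, was at 27.7, 31.1, 29.6 and 29.1 CPM in saline rats 1 to 4 and at 36.0, 28.6, 39.6 and 30.7 CPM in METH rats 1 to 4. METH rats 1 and 3 were above all saline rats and METH rats 2 and 4 were within the saline range. The log2 fold change was 0.20 (standard error 0.11, 95% interval -0.04 to 0.44), with an FDR of 0.505 by the edgeR quasi-likelihood test. Without METH rat 3 it was 0.12.

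**Figure D4:**
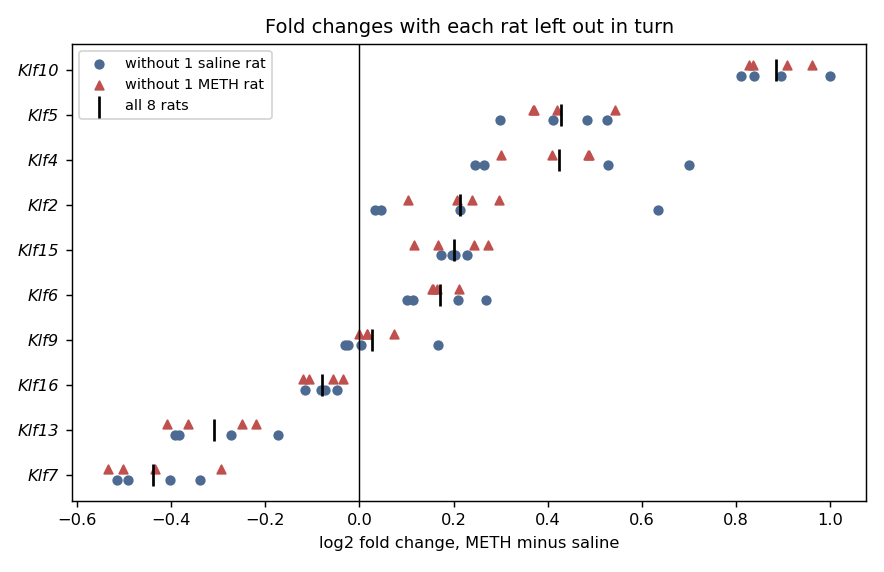
Log2 fold change of each Krüppel-like gene with 1 rat left out. Blue circles leave out 1 saline rat, red triangles 1 METH rat, and the black bar is the value with all 8 rats. Klf10 stays between 0.81 and 1.00, Klf2 moves between 0.03 and 0.63, Klf4 between 0.24 and 0.70 and Klf6 between 0.10 and 0.27 with the saline rat left out, and Klf9 lies on both sides of 0.

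Several genes that are known to act with, or to induce, the members were measured in the same rats. Of 13 glucocorticoid-induced genes tested, 2 were called higher and 0 lower, 7 were higher at an unadjusted p below 0.05, and the median log2 fold change was 0.28. DESeq2 called 3 of them, adding Ddit4, and the exact and likelihood ratio forms of edgeR called 4, adding Ddit4 and Dusp1. In the quasi-likelihood test the called genes were Per1, a clock gene, at 88.3 ± 8.04 CPM (SD, n = 4) in saline and 147.4 ± 14.1 CPM (SD, n = 4) in METH rats, and Cdkn1a, the p21 cell cycle inhibitor. Cdkn1a was also the 1 called gene among 11 reported Krüppel-like target genes, which had a median log2 fold change of -0.02. It was at 10.1 ± 0.992 CPM (SD, n = 4) in saline and 19.0 ± 3.77 CPM (SD, n = 4) in METH rats, which is 0.91 higher on the log2 scale (FDR = 0.0133, edgeR quasi-likelihood test). Without saline rat 2 its FDR was 0.0636 in the same test, and the call was lost. Klf9 and Klf15, the members known to respond to glucocorticoids, were not called, as given above.

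Among 6 tested steroid and thyroid hormone receptors 0 were called and 3 were lower and 0 higher at an unadjusted p below 0.05. The lowest unadjusted p was that of the glucocorticoid receptor gene Nr3c1, at -0.27 on the log2 scale (FDR = 0.180, edgeR quasi-likelihood test), and it was the 1 receptor gene called lower by DESeq2. Of 16 early response genes, 10 were called higher and 0 lower, with a median log2 fold change of 1.56, and the other tools called 10 to 13. The called genes were Fos, Fosb, Fosl2, Junb, Arc, Egr1, Egr2, Egr4, Nr4a1 and Nr4a3, of which Fos was lost in 6 of the 8 fits that left out 1 rat (FDR up to 0.176 in the edgeR quasi-likelihood test). Their log2 fold changes ran from 1.02 (Egr1) to 2.75 (Nr4a3), beside 0.88 for Klf10. Differences between genes were not tested.

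The transforming growth factor-beta and Smad genes, which act upstream of Klf10, had 0 calls in 10 tested genes, with 1 higher and 2 lower at an unadjusted p below 0.05. The higher gene was the inhibitory Smad7, at 65.9 ± 4.94 CPM (SD, n = 4) in saline and 84.7 ± 5.25 CPM (SD, n = 4) in METH rats. Every METH rat was above every saline rat for this gene, as in 3.75% of all genes tested in this direction. Its FDR was 0.0869 by the edgeR quasi-likelihood test, with a call by DESeq2 and by the likelihood ratio and exact forms of edgeR. The 2 lower genes were the receptor genes Tgfbr1 and Tgfbr2, at -0.47 and -0.31 on the log2 scale (FDR = 0.239 and 0.377, edgeR quasi-likelihood test). The ERK5 and MEF2 genes that induce Klf2 and Klf4 had 0 calls by any tool in 5 tested genes. Of these 5, 0 were at an unadjusted p below 0.05, and the lowest was 0.0611 for Mef2a in the edgeR quasi-likelihood test. Mapk7, the ERK5 gene itself, was not tested, with 0 counts in every rat. Whether its transcript was absent or its reads were not assigned to this symbol cannot be told from the counts. Of 9 tested cofactors 0 were called by any tool and 1 was higher at an unadjusted p below 0.05, and the coactivator Crebbp had the lowest unadjusted p, at 0.24 on the log2 scale (FDR = 0.358, edgeR quasi-likelihood test). Of 4 genes of protein turnover 0 were called by any tool and 1 was higher at that level, the ubiquitin ligase gene Smurf1, with a log2 fold change of 0.19.

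Glial and other markers were compared as lists. Of 8 microglial markers 1, the fractalkine receptor gene Cx3cr1, was called lower, at 18.8 ± 3.44 CPM in METH against 31.2 ± 4.43 CPM in saline rats (both SD, n = 4), and the summed level was 442.1 to 520.5 CPM in saline and 395.1 to 480.1 CPM in METH rats. The call of Cx3cr1 was lost in 6 of the 8 fits that left out 1 rat (FDR up to 0.144 in the edgeR quasi-likelihood test). None was called by that test among 8 astrocyte, 8 oligodendrocyte, 11 projection neuron, 3 cortical, 2 choroid plexus and 2 blood genes tested, and 1 of them, Gjb6, was called by DESeq2 and by the likelihood ratio and exact forms of edgeR. At an unadjusted p below 0.05 in the quasi-likelihood test, the microglial markers had 2 lower and 0 higher genes, with a list median log2 fold change of -0.21. The other lists had 6 higher genes (1 astrocyte, 3 projection neuron, 1 cortical and 1 choroid plexus) and 1 lower (oligodendrocyte). In these other lists, the lowest unadjusted p belonged to the connexin gene Gjb6 among astrocyte genes, with a log2 fold change of 0.44 (list median 0.02). Among oligodendrocyte genes it belonged to Ermn, with -0.35 (list median -0.08). For projection neurons it was Ppp1r1b with 0.25 (list median 0.14). For cortical genes it was Nrgn with 0.36, against a list median of -0.29 and -1.54 for Slc17a7, which saline rat 1 carried. For choroid plexus it was Clic6 with 0.79 (list median 0.62), and for blood Alas2 with -0.25, beside 0.05 for Hbb. The part of these markers in the Klf10 result was not tested.

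Promoter sequence (250 bases before to 50 after the start site, RefSeq, assembly GRCr8) was read for 6 of the 10 genes, namely Klf4, Klf5, Klf6, Klf7, Klf9 and Klf15. Klf2, Klf10, Klf13 and Klf16 were not matched. Both strands were searched for sites of factors that drive early response genes, and for the elements that the family itself binds. The family element CACCC was in Klf5, Klf7, Klf9 and Klf15 and in 54.9% of all promoters, and the GC box GGGCGG was in Klf6 and Klf7 and in 33.1%. The CCAAT box was in Klf5, Klf6, Klf9 and Klf15 and in 37.5%. The early response sites are printed below because early response genes were higher in METH rats. The cyclic AMP response element half-site TGACG, bound by CREB proteins, was found in Klf5, Klf9 and Klf15, and in 21.2% of all 33469 promoters. The serum response factor site known as the CArG box was found in Klf6 and in 1.64% of all promoters. The full element TGACGTCA was in 0 of the 6 and in 1.83% of all promoters. Capitals mark the site, and CGTCA is TGACG read on the other strand.
Klf5, 27 bases before the start, chr15:82472042-82472070, plus strand: aatagaggcgggCGTCAagtgtcagtagt
Klf9, 79 bases before the start, chr1:230126555-230126583, plus strand: gggcctggattgTGACGtgatgggattct
Klf15, 176 bases before the start, chr4:124522827-124522855, plus strand: gggcgcggctcgTGACGtgcagcgctagc
Klf15, 104 bases before the start, chr4:124522899-124522927, plus strand: cggcgcccgcggCGTCAcgtgagcggtcg
Klf6, 201 bases before the start, chr17:69458662-69458691, minus strand: ccaataggaaggCCTTTAATGGagaggctc
The second Klf15 site overlaps an E-box, CACGTG, the motif of the circadian activators. The E-box was found in Klf6 and Klf15 and in 6.42% of all promoters. Of the genes with these sites, Klf5 had a log2 fold change of 0.43, Klf15 of 0.20, Klf6 of 0.17 and Klf9 of 0.03. The called gene Klf10 was not among the 6 genes searched, so the sites cannot be set against the call. A match of letters is a description of the sequence and does not show that a factor binds there.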

How the data were processed

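The authors used Cutadapt 1.18 for trimming, STAR 2.7.0e for alignment to rn6 and featureCounts (Subread 1.6.4) for counting, and deposited raw counts per gene symbol, with 1 column per rat. Annotation, strand setting and multi-mapping reads are not given in the sources used here, so overlapping genes are uncertain. From the counts, genes were filtered (filterByExpr, minimum count 10), scaled by TMM and compared in edgeR 4.0.16 (R 4.3.3) by its quasi-likelihood test with Benjamini-Hochberg adjustment. CPM values are TMM-scaled, and log2 CPM had a prior count of 2 added. The error given is the log2 fold change divided by the square root of F. limma 3.58.1 and DESeq2 1.42.0 served as alternatives, with other scalings, filters and call rules, each rat left out and the rat number as a block.

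No 2 rats of a group agreed within sampling noise (chi-square 10.1 to 27.6 per degree of freedom), so none was counted as a duplicate. Counting error covers the reads only. The members and lists were chosen with earlier results of these data known. Named genes are the members and, per list, the called genes or else the gene with the lowest unadjusted p, with some others named beside them. Counts were simulated for 11917 genes, of which 200 were shifted by 1 on the log2 scale. An FDR below 0.05 was reached by 168 of these 200 and by 14 unchanged genes, without the mean log2 CPM threshold. That shift is larger than the fold change of any member, and smaller shifts were not simulated. Coordinates are given only for the RefSeq promoter sequences, since the gene table is of GRCr8.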

Additional observations from a re-analysis of the deposited data

Results flagged for a closer look

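On the log2 CPM scale, in 20 groups of 4 rats (10 genes in 2 groups), 1 had a rat set apart from the others by Dixon's 95% value, and chance flags about 1 in 20. Klf6 in METH rat 3 was at 19.9 CPM against 22.1 to 22.6 CPM in the other METH rats, and on the log2 CPM scale the gap was 0.83 of the range of the group, just past that value. Without METH rat 3 the log2 fold change of Klf6 was 0.21 in place of 0.17, and it was not called in either fit.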

How the results depend on the processing

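The number of Krüppel-like genes called was 1, Klf10, in all 15 alternatives that kept every rat and in all 8 that left out 1 rat (1 to 1). Its FDR ranged from 2.71e-06 to 0.0404 over these fits. Over all genes tested, 62 were called, against 191 with the Wald test of DESeq2, 168 with the edgeR exact test, 170 with the likelihood ratio test and 100 at an FDR below 0.1. The cause of the differences between tests was not tested. With a rat left out the count over all genes ranged from 37, without saline rat 2, to 70. With the rat number as a replicate block 37 genes were called over all, and Klf10 was at 0.89 on the log2 scale (FDR 0.0362). Same-numbered rats are different animals, the correlation of their deviations from the group means was -0.09 on average, and 1 of 4 numbers matched best with itself. Klf9 was at -0.0107 when scaled by total counts, and ranged from -0.0308 to 0.167 with a rat left out. Actb, the reference gene, was at -0.0166 with that scaling and ranged from -0.0108 to 0.0392. No other member changed sign in these fits. Each member had at least 119 counts in every rat, and the number of rats, 4 per group, limits the precision beside counting error.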
